A study of Caenorhabditis elegans with 19 samples.

Results

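Neuropeptide receptor genes of Caenorhabditis elegans were examined for occupancy by LIN-14, a nuclear factor of developmental timing that is abundant in newly hatched larvae and declines later. The 77 genes were chosen by name alone from the gene names in the 3 annotated tables, which hold 18846 gene names in all. They comprise 27 npr, 15 frpr, 11 dmsr, 7 gnrr, 3 nmur, 3 aexr, 2 ckr and 2 ntr genes, together with egl-6, aex-2, sprr-1, tkr-1, trhr-1, pdfr-1 and seb-2. LIN-14 fused at its C terminus to GFP, encoded by the allele lin-14(cc2841[lin-14::gfp]), was pulled down from whole larvae with beads that bind GFP, and the recovered DNA was sequenced (ChIP-seq). Second-stage larvae (L2) were collected 21 ± 1 h after plating on food, with 5 ChIP and 4 input libraries. First-stage larvae (L1) of the same tagged strain were collected 8 ± 1 h after plating, with 5 ChIP and 4 input libraries. Which of these libraries the authors left out as outliers is not given in the files. About 600000 animals went into each replicate, and a single ChIP library from untagged N2 larvae of the L1 stage is not analysed here. Whole animals were used, so occupancy in the neurons that express a receptor cannot be told apart from occupancy elsewhere in the body.

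Neuropeptides are cut from precursor proteins, released from dense core vesicles, and act over a distance on G protein-coupled receptors. Most of the receptors are of the rhodopsin type, and their families are named after the peptides that activate related receptors in other animals, such as FMRFamide, myosuppressin, neuromedin U, cholecystokinin, gonadotropin-releasing hormone and tachykinin. PDFR-1 and the SEB receptors are of the secretin type. In the worm these receptors set foraging, egg laying, defecation, sleep and arousal, and many act in only a few neurons.

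The first question was which receptor genes had LIN-14 sites at each stage. The peak lists are 1 per stage, called by the authors on merged libraries, and each peak carries the authors' own fold enrichment over control at its summit and q-value. Values per library were not given, so peak values have no replicate error and depth per library is unknown. Every one of the 77 genes had at least 1 L1 peak, but a gene had to be named in a table to be chosen, so this count is set by the rule. A RefSeq gene table (assembly WBcel235) names 109 receptors of the same families, and this gives a denominator that does not depend on peaks. Of those 109, 34 (31.2%) had an assigned L2 peak and 85 (78.0%) an assigned L1 peak. Over all 19983 protein-coding genes the shares were 24.5% in L2 and 69.2% in L1, so the shares were higher among receptors at both stages. This was not particular to receptors, as genes for peptide processing and release had 30.4% in L2 and 73.9% in L1. FLP peptide genes had 22.6% in L2 and 80.6% in L1. Lower at both stages were NLP peptide genes (21.8% and 61.5%) and chemoreceptor genes (24.1% and 68.4%). Neither these differences nor the part of gene length in them was tested. The 24 receptors without an assigned peak at either stage were dmsr-6, dmsr-9, dmsr-10, dmsr-12, dmsr-15, frpr-5, frpr-6, frpr-14, frpr-16, npr-2, npr-17, npr-24, npr-26, npr-29, npr-30, npr-32, npr-33, npr-40, npr-44, seb-3, sprr-2, sprr-3, tkr-2 and tkr-3. Among them seb-3 encodes a receptor related to those for corticotropin-releasing factor. All 7 gnrr genes and all 3 nmur genes had L1 peaks, against 11 of 16 dmsr genes, 1 of 3 sprr genes and 1 of 3 tkr genes. The files name 9 further receptors by their sequence names (npr-36, npr-37, npr-38, npr-39, npr-41, npr-42, npr-43, npr-45 and frpr-21), and these count among the 85 but not among the 77. The gene called seb-2 in the files, a receptor of the secretin type, is dhrr-1 in RefSeq.

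Receptor genes were spread unevenly over chromosomes, and so were their peaks. On the X chromosome 18 of 38 RefSeq receptors (47.4%) had an L2 peak and 33 (86.8%) an L1 peak. On the autosomes the counts were 16 of 71 (22.5%) in L2 and 52 (73.2%) in L1. For all protein-coding genes the shares on X were 26.2% in L2 and 76.5% in L1, and on the autosomes 24.3% and 68.1%. The gap between X and the autosomes in L2 was thus wider for receptors than for genes in general, a difference that was not tested. Of the 77 genes, 31 lie on X (40.3%), against 17.6% of all genes with an L1 peak. The FLP peptide genes were on X in 10 of 25 cases, whereas of the chemoreceptor genes, which encode the other large class of G protein-coupled receptors in the worm, 2.76% lay on X. All 4 members of the aexr and aex-2 family were on X, and none of the 11 dmsr genes was.

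In L2 the 77 genes held 32 peaks at 29 genes, and in L1 they held 159 peaks at 77 genes. Fold enrichment of the receptor peaks spanned 1.29 to 1.92 in L2, with a median of 1.53, and 1.39 to 2.97 in L1, with a median of 1.83. The medians over all peaks were 1.54 in L2 and 1.81 in L1, so receptor peaks were of ordinary height within each list. Of the L1 receptor peaks, 38 (23.9%) reached a fold enrichment of 2, against 24.7% of all L1 peaks. Fold enrichments of the 2 lists come from separate peak calls, and their sizes are not compared as a change in binding.

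**Figure D1:**
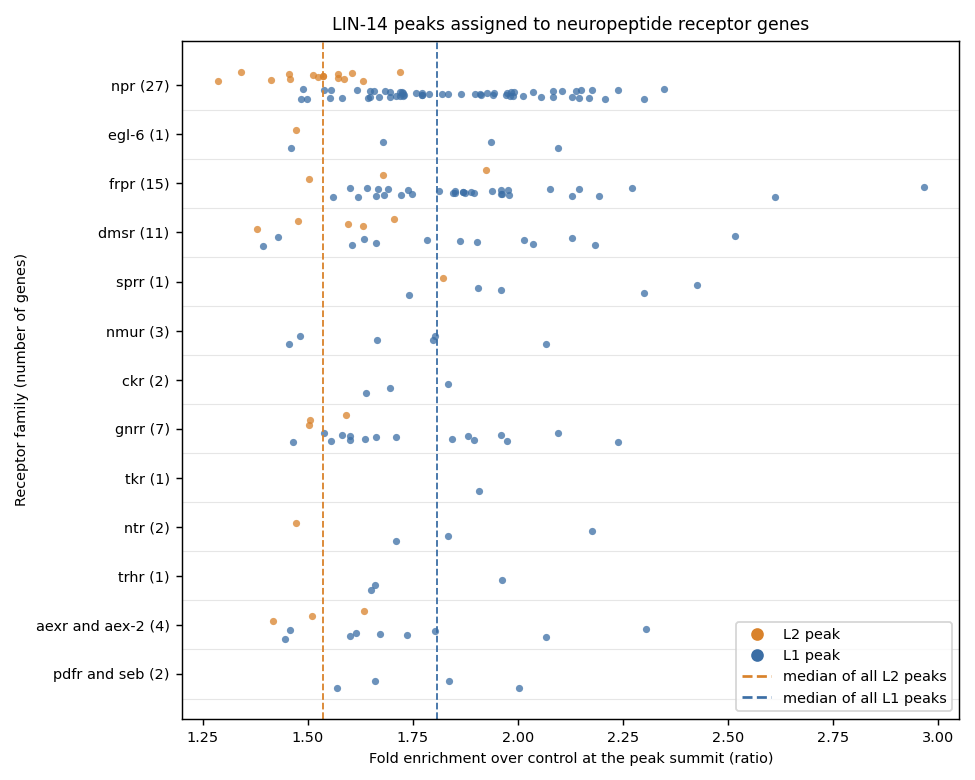
Fold enrichment over control at the summit (x axis, a ratio) of every LIN-14 peak assigned to a neuropeptide receptor gene, by receptor family with the number of genes in brackets. Orange points are L2 peaks and blue points L1 peaks, and dashed lines give the medians over all peaks of each list, 1.54 in L2 and 1.81 in L1. The frpr family holds the highest point at both stages, 1.92 in L2 and 2.97 in L1.

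The highest peak of either list at a receptor gene belonged to frpr-3, whose product responds to FLP-20 peptides. Its L2 peak (chromosome V, 7771195 to 7771681) had a fold enrichment of 1.92 and ranked 31 in the L2 list, and its L1 peak (chromosome V, 7771104 to 7772182) had 2.97 and ranked 36 in the L1 list. Both overlapped the transcript start. Positions are printed as the files give them, with bases counted from 1, and the sources used here do not name the build. Next in L2 came sprr-1 of the sex peptide receptor family (1.82), npr-16 (1.72), dmsr-5 of the myosuppressin receptor family (1.70) and frpr-18 (1.68), the receptor of the arousal peptide FLP-2. They were followed by dmsr-1, a receptor for the sleep-promoting FLP-13 peptides, aex-2, which encodes the receptor for the defecation signal NLP-40, and npr-28, each at 1.63, then npr-27 at 1.60 and dmsr-4 at 1.59.

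In L1 the order below frpr-3 was frpr-10 (2.61), dmsr-5 (2.52), sprr-1 (2.42), npr-9 (2.35), aexr-1 and npr-27 (2.30 each), frpr-7 (2.27), npr-31 and gnrr-3 (2.24 each). NPR-9 is known for its action in the AIB interneurons, where it shapes local search for food. Among these genes frpr-3, dmsr-5, sprr-1 and npr-27 stood in the first 10 of both stages. The strongest frpr-10 peak (chromosome IV, 7959926 to 7960710) lies upstream of frpr-10 and also near the Argonaute gene csr-1. The L2 peak that overlaps it (7960054 to 7960307, fold enrichment 1.48) was assigned to csr-1, so frpr-10 has no L2 peak of its own in the annotation.

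The number of L1 peaks differed between genes, with 159 peaks at 77 receptor genes, against 37018 peaks at 18651 genes over all. In L1, 30 genes had 1 peak, 26 had 2, 11 had 3 and 10 had 4 or more. The largest number was 7, at npr-4, which encodes a receptor for FLP-18 peptides. Its L1 peaks had fold enrichments between 1.55 and 2.17, and their summits ran from -4346 bp (upstream) to +2753 bp (downstream) of the assigned transcript starts. Its single L2 peak lay 317 bp past a start, with a fold enrichment of 1.34, and overlapped the highest of the L1 peaks. The sprr-1 gene had 5 L1 peaks, all past the start, at 496, 2037, 2852, 3659 and 5286 bp. The last of them lies in an exon of the neighbouring gene exc-1. Its L2 peak was at 2912 bp and overlapped the highest L1 peak, at 2852 bp.

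Each with 4 L1 peaks were npr-9, npr-18, npr-23, egl-6, frpr-8, frpr-18, gnrr-6 and aexr-3. EGL-6 is the receptor through which FLP-10 and FLP-17 inhibit egg laying, and its L1 peaks had fold enrichments of 1.93, 1.68, 1.46 and 2.094 from left to right on the chromosome (X, 5931047 to 5934143). The egl-6 L2 peak (5933139 to 5933358, fold enrichment 1.47) overlapped the lowest of the 4, not the highest. At frpr-18 the L2 summit lay upstream at -2534 bp, and the peak overlapped the highest L1 peak, which has its summit at -2552 bp and a fold enrichment of 2.08. At npr-18 the single L2 peak, 187 bp past a start, likewise overlapped the highest L1 peak (2.08). At npr-9 both L2 peaks, 526 and 1827 bp past the start, overlapped the highest 2 of its L1 peaks. No L2 peak was assigned to npr-23, frpr-8, gnrr-6 or aexr-3.

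**Figure D2:**
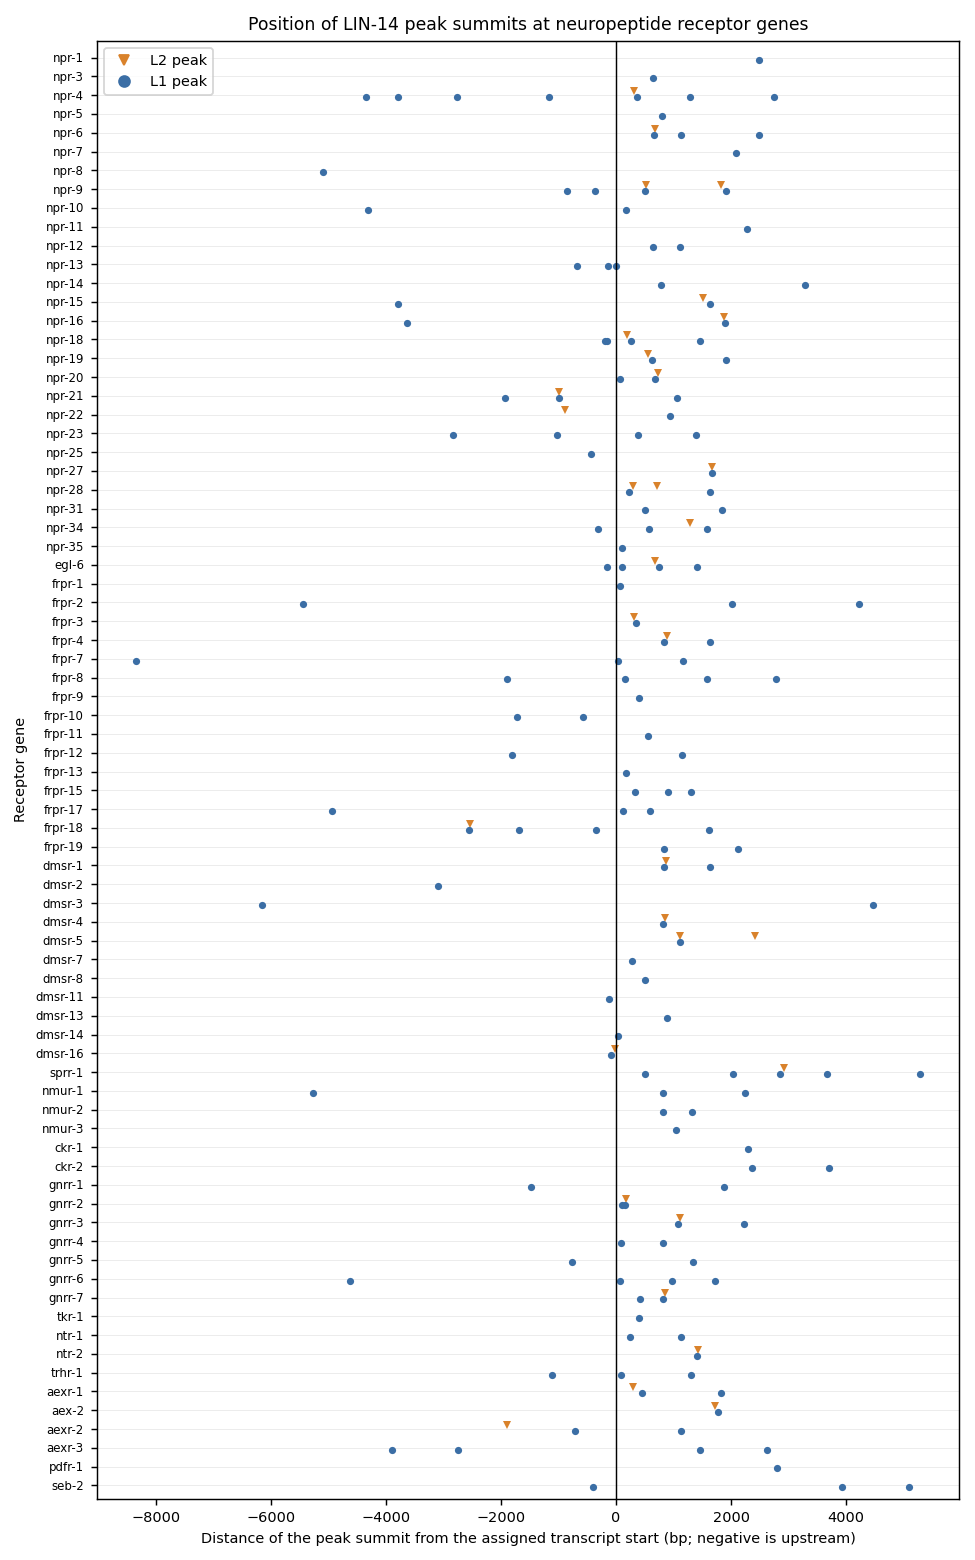
Distance of each peak summit from the start of the transcript it was assigned to (x axis, in bp, negative upstream), with 1 line for each of the 77 receptor genes. Orange triangles are L2 peaks and blue circles L1 peaks. Most summits lie to the right of the start line, npr-4 has the most L1 peaks with 7, and 30 of the 32 L2 peaks overlap an L1 peak.

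The L2 sites were nearly all a subset of the L1 sites. Of the 32 L2 receptor peaks 30 (93.8%) overlapped an L1 peak by at least 1 bp, against 97.8% of all L2 peaks. Conversely, 30 of the 159 L1 receptor peaks (18.9%) overlapped an L2 peak, against 20.9% of all L1 peaks. L1 peaks that overlapped an L2 peak had a median fold enrichment of 2.089, with 1.46 as the lowest, and those that did not had a median of 1.77. The L2 peaks outside L1 peaks belonged to npr-22, which encodes a receptor for the feeding peptides of LURY-1, and to dmsr-5. The npr-22 peak (chromosome IV, 8558471 to 8558660) had its summit upstream at -884 bp with a fold enrichment of 1.51, while the L1 peak of that gene lay 935 bp past a start. The second dmsr-5 peak (chromosome III, 10992613 to 10992825, fold enrichment 1.48) lay 2417 bp past the start.

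Most receptor peaks lay past the transcript start, inside the genes. The authors' annotation counts a peak within 3 kb on either side of a transcript start as promoter, so its promoter class includes sites inside genes. Past the start lay 26 of 32 L2 peaks (81.2%) and 103 of 159 L1 peaks (64.8%), against 64.6% and 59.0% over all L2 and L1 peaks. The assigned transcript's body was touched by 28 of the 32 L2 peaks (87.5%) and 116 of the 159 L1 peaks of receptors. Over the peaks of all protein-coding genes these shares were 66.4% in L2 and 65.1% in L1. Receptor genes are long, with a median transcript span at L1 peaks of 3641 bp against 2099 bp for protein-coding genes, and neither these differences nor the part of gene length in them was tested. The median summit distance from the start was +720 bp in L2 and +633 bp in L1 for receptors, against +592 bp and +392 bp over all peaks.

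In L2 all 32 receptor peaks were in the promoter classes (86.9% over all L2 peaks), 21 of them within 1 kb of the start (65.6%, against 49.4%). In L1, 137 of 159 were (86.2%, against 89.1%), 80 of them within 1 kb (50.3%, against 56.0%). The remaining L1 peaks were 7 in exons, 7 in introns and 8 distal intergenic. In that order the shares were 4.4%, 4.4% and 5.03%, against 6.57%, 1.65% and 1.76% over all L1 peaks. Intronic peaks included a site in intron 1 of dmsr-3 (chromosome II, 13351493 to 13351955, fold enrichment 2.13), sites in intron 2 of npr-4 and of seb-2, and a site in intron 1 of npr-10. Exonic peaks within the receptor's own transcript were in exon 5 of ckr-2, exon 4 of npr-14, exon 3 of seb-2 and exon 9 of sprr-1. CKR-2 is a receptor for the cholecystokinin-like NLP-12 peptides, which adjust movement.

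Receptor peaks seldom lay close to the start of a second gene. Within 1 kb of a receptor peak, a start of another transcript named in the tables was present for 1 of 159 L1 peaks (0.629%), the peak of dmsr-16 near T27B2.2. Over all L1 peaks this share was 10.3%, and over those of protein-coding genes 7.75%. None of the 54 receptor sites in the comparison of stages had such a neighbour, against 10.6% of all listed sites. This count sees only starts of genes named in the tables, so it does not show that assignments are free of ambiguity. The frpr-10 and aexr peaks are cases at a greater distance. Other L1 receptor peaks lie inside neighbouring genes, such as a frpr-2 peak in an exon of ppk-3 and a gnrr-6 peak in an exon of F13D2.1. At aexr-1 and aexr-2, related receptors that neighbour each other on X, a single site was given to both genes. The L2 peak (6633258 to 6633465, fold enrichment 1.51) was assigned to aexr-2, with its summit upstream at -1896 bp. The overlapping L1 peak (6633272 to 6633535, fold enrichment 2.30) was assigned to aexr-1, 1828 bp past its start. Another group of neighbours on chromosome V, dmsr-11, dmsr-16, dmsr-14 and dmsr-13 (6804051 to 6819117), had 1 L1 peak each, with fold enrichments of 1.43, 1.63, 1.39 and 1.60. Only dmsr-16 of that group had an L2 peak, at 1.38.

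The second question was how occupancy differed between L2 and L1. The authors' deposited table gives for each site the log2 mean concentration of normalised reads in L2 and in L1, the log2 fold of L2 over L1, its p-value, and the false discovery rate (FDR) over all sites tested. The table leaves out every site whose FDR exceeds 0.3. Listing thus favours sites with a difference, and the listed sites do not stand for all receptor peaks. That limit is loose, so being listed does not by itself show a difference between the stages. Of the listed receptor sites, 18 had an FDR of 0.1 or more. The labels do not say whether the libraries stem from separate cultures. The p-values therefore reflect variation among libraries that could be technical. A site was called lower at an FDR below 0.05. Standard errors and 95% intervals of the folds were derived from the deposited fold and p under a normal approximation.

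Of the 77 genes 37 had a listed site, 54 sites in all, against 10004 of the 18846 gene names. A listed site was overlapped by 34.6% of the L1 receptor peaks and by 38.7% of all L1 peaks. Every one of the 54 sites was lower in L2 by its point value, a direction that most of all listed sites shared. By the site of highest concentration, 15 of the 37 genes were lower in L2 in the authors' deposited table (40.5%), against 42.1% of all 10004 genes with a listed site. Counted by site, 23 of 54 were lower (42.6%), against 41.4% of all 14675 listed sites. No receptor site was raised (0 of 54), and 0.123% of all listed sites were. Log2 folds of the receptor sites in the authors' deposited table ran from -0.70 to -0.21, with a median of -0.45 and an interquartile range of -0.57 to -0.34. Over all listed sites the median in the authors' deposited table was -0.44, with -0.55 to -0.35 as the interquartile range. Normalised reads at the median receptor site in L2 were thus 73.2% of those in L1, and at all listed sites 73.7%. The sources used here do not say whether input reads were subtracted, and reads of the background count in both stages. The median standard error of a receptor site was 0.20, larger than the standard deviation of the 54 folds, 0.14. With each site set against the common median of -0.44 in place of 0, none of the 54 differed by a normal test with Benjamini-Hochberg adjustment over all listed sites, and none had an unadjusted p below 0.05. With standard errors of this size and no site listed above an FDR of 0.3, that test had little room to call a receptor site, so the count of 0 does not show that the sites were alike.

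**Figure D3:**
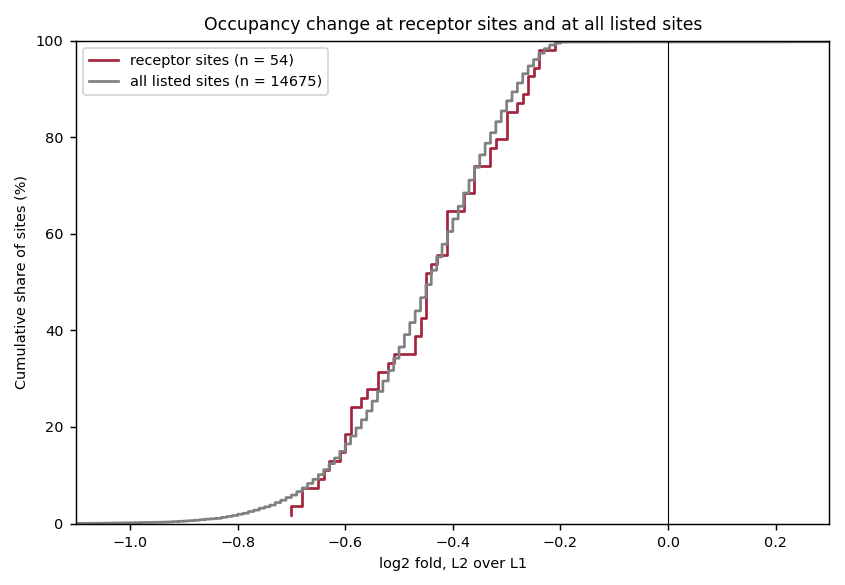
Cumulative share of sites (y axis, percent) by log2 fold of L2 over L1 (x axis) in the authors' deposited table, for the 54 listed receptor sites (red) and all 14675 listed sites (grey). The curves lie close together, with medians of -0.45 for the receptor sites and -0.44 for all listed sites. The receptor sites stay between -0.70 and -0.21.

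The receptor for FLP-20, frpr-3, had the lowest FDR of the group. Its site (chromosome V, 7771128 to 7772153) had log2 concentrations of 6.93 in L2 and 7.63 in L1 in the authors' deposited table. The log2 fold of frpr-3 in the authors' deposited table was -0.70 (95% interval -1.08 to -0.32, FDR 0.0114), normalised reads in L2 at 61.6% of those in L1. Concentration counts reads over a whole site, and wider sites held more of them (Spearman rho 0.92 between width and mean concentration over the 54 sites), so levels are not ranked between genes here. The frpr-3 site is 1026 bp wide, those of npr-28 and ntr-1 are 1016 and 910 bp.

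At the dmsr-5 site (chromosome III, 10993883 to 10994245) the authors' deposited table gave 5.75 in L2 and 6.45 in L1, a log2 fold of -0.70 (95% interval -1.13 to -0.27, FDR 0.018). The nematocin receptor gene ntr-1, whose ligand is related to oxytocin and vasopressin, had 6.66 in L2 and 7.27 in L1 at its start (chromosome I, 12621158 to 12622067) in the authors' deposited table. The authors' deposited table gave ntr-1 a log2 fold of -0.61 (95% interval -0.97 to -0.25, FDR 0.0156). No L2 peak was assigned to ntr-1. The related nematocin receptor gene ntr-2 had an L2 peak (fold enrichment 1.47) over its L1 peak (1.83). It had no listed site, so its change between the stages is not known.

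Several genes were lower in L2 at more than 1 site. All 3 listed sites of npr-23 (chromosome I, 1061052 to 1063932) passed the threshold in the authors' deposited table, with log2 folds of -0.68, -0.60 and -0.65 in chromosome order. Both listed sites of frpr-19 (chromosome IV, 1779344 to 1780831) did so in the authors' deposited table, at -0.63 and -0.68, and so did both of sprr-1 on X, at -0.52 and -0.51. In npr-34 (chromosome II, 14737367 to 14738775) both sites passed in the authors' deposited table, at -0.44 (FDR 0.0492) and -0.56 (FDR 0.0322). Sites of 1 gene come from the same libraries and are not independent of one another.

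Other genes had listed sites on both sides of the threshold. At npr-9 (chromosome X, 11329117 to 11331768) the site just past the start had log2 concentrations of 6.11 in L2 and 6.70 in L1 in the authors' deposited table. Its log2 fold there was -0.59 (FDR 0.0195) in the authors' deposited table. The neighbouring npr-9 sites did not pass, with -0.36 (FDR 0.112) and -0.21 (FDR 0.256) in the authors' deposited table. At npr-4 the authors' deposited table listed 4 sites, of which 2 passed, with folds of -0.43 (FDR 0.0451) and -0.54 (FDR 0.0364), and 2 did not, at -0.36 (FDR 0.134) and -0.24 (FDR 0.295). The start site of trhr-1, which encodes a receptor related to that for thyrotropin-releasing hormone and is needed for normal growth, was lower at -0.60 (FDR 0.0199) in the authors' deposited table. Its second site, 1057 bp past the start, was at -0.28 (FDR 0.193) in the authors' deposited table. At egl-6 the start site passed, at -0.57 (FDR 0.033) in the authors' deposited table, and the site 1235 bp past the start did not, at -0.41 (FDR 0.0826). The differences between sites of the same gene were not tested, and their 95% intervals overlap in each of these genes.

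**Figure D4:**
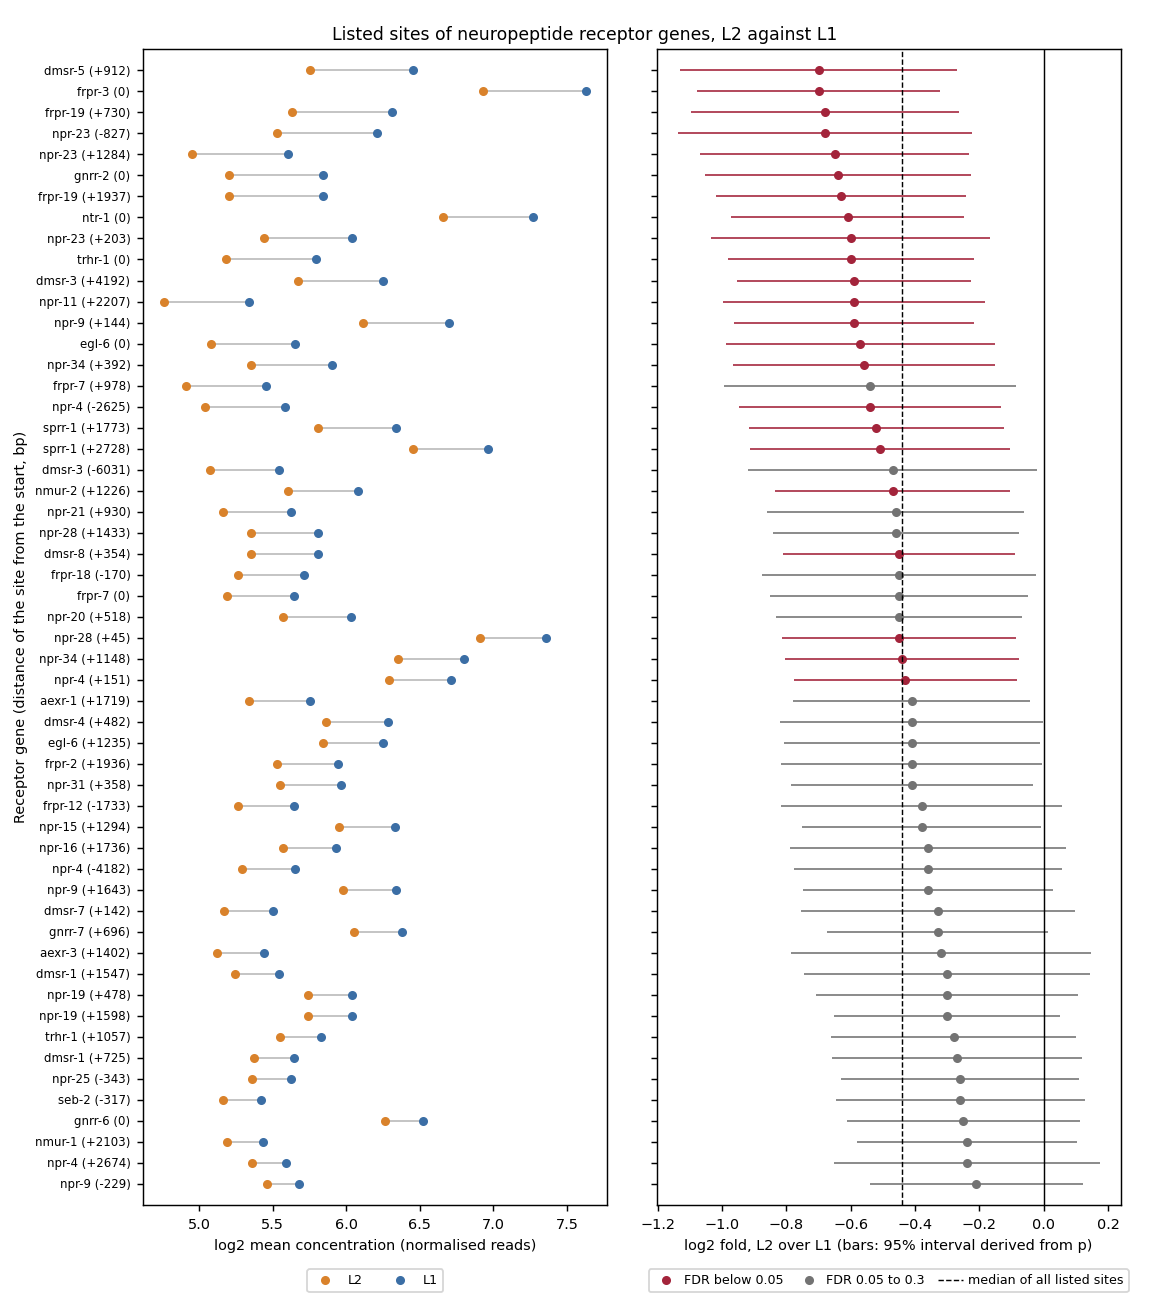
The 54 listed receptor sites, ordered by log2 fold and named by gene with the distance of the site from the transcript start in bp. The left panel gives the log2 mean concentration in L2 (orange) and L1 (blue), and the right panel the log2 fold of L2 over L1 with 95% intervals derived from the deposited p, in red for an FDR below 0.05 and in grey for 0.05 to 0.3. Every L2 point lies left of its L1 point, and the 95% intervals of all 54 sites reach across the dashed median of all listed sites.

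Of the other genes, gnrr-2 was lower at -0.64 (FDR 0.0211) and dmsr-3, at its intronic site, at -0.59 (FDR 0.0181) in the authors' deposited table. The distal dmsr-3 site did not pass, at -0.47 (FDR 0.0789) in the authors' deposited table. The NLP-1 receptor gene npr-11, which acts in odour adaptation, was lower at -0.59 (FDR 0.0267) in the authors' deposited table, with log2 concentrations of 4.76 in L2 and 5.34 in L1. Also past the threshold in the authors' deposited table were nmur-2 at -0.47 (FDR 0.0408) and dmsr-8 at -0.45 (FDR 0.0451). So was the npr-28 site 45 bp past the start, at -0.45 (FDR 0.0458). The second npr-28 site lay just outside, at -0.46 (FDR 0.0502) in the authors' deposited table. Sites with an FDR of 0.05 to 0.1 numbered 13 in the authors' deposited table and those at 0.1 or above 18, so the threshold divides a continuous range.

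By family, the site of highest concentration was lower in the authors' deposited table for 6 of 13 npr genes with a listed site, 3 of 6 dmsr genes and 2 of 6 frpr genes. For gnrr genes the count was 1 of 3, for nmur genes 1 of 2, and for aexr genes 0 of 2 in the authors' deposited table. No ckr or tkr gene had a listed site. On X, 5 of 16 receptor genes were lower in the authors' deposited table (31.2%), and on the autosomes 10 of 21 (47.6%). Over all genes with a listed site these shares in the authors' deposited table were 38.0% on X and 43.0% on the autosomes. The difference between X and the autosomes was not tested for receptors.

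A called decrease did not track the presence of an L2 peak. Of the 15 genes lower at their site of highest concentration in the authors' deposited table, 8 had an L2 peak and 7 had none. Of the 22 listed genes that were not lower there, 11 had an L2 peak. Among the 40 genes without a listed site, 10 had an L2 peak. Over the 54 sites the log2 fold in the authors' deposited table had a Spearman rho of -0.28 with the L1 concentration, which enters the fold itself, against -0.10 over all listed sites.

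Some receptor genes had strong L1 peaks and no listed site. An L1 peak with a q-value of 1e-10 or less was present at 37 genes, of which 8 had no listed site. Of all protein-coding genes, those without any peak included, 30.3% had a peak at that q-value. The strongest of these were frpr-10 (2.61), npr-27 (2.30), gnrr-3 (2.24), frpr-17 (2.14) and npr-18 (2.08). For frpr-10 the site was listed under csr-1, with a log2 fold of -0.63 (FDR 0.0257) in the authors' deposited table. For npr-27, gnrr-3 and npr-18 the same site had both an L2 and an L1 peak, with fold enrichments of 1.60 and 2.30, 1.504 and 2.24, and 1.58 and 2.08. A site can be missing from the list because its FDR exceeded 0.3 or because it was not tested, and the table does not say which.

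The remaining well-studied receptors had between 1 and 3 L1 peaks each. The gene of the FLP-18 and FLP-21 receptor npr-1, known for its part in foraging and aggregation, had 1 L1 peak 2479 bp past the start (chromosome X, 4767388 to 4767617, fold enrichment 1.94), no L2 peak and no listed site. The PDF receptor gene pdfr-1, which promotes roaming, had 1 L1 peak 2798 bp past a start at 1.57, and no L2 peak or listed site. The FLP-18 receptor gene npr-5 had 1 L1 peak at 1.87, ckr-1 1 at 1.64, tkr-1 1 at 1.91 and npr-8 1 at 1.55, all without an L2 peak or a listed site. The L1 peaks of gnrr-1 had fold enrichments of 1.66 and 1.64. The receptor gene of the sleep peptides FLP-13, dmsr-1, had a site with an L2 peak (1.63) and an L1 peak (2.18). Its fold in the authors' deposited table was -0.27 (FDR 0.216), so that site did not pass. The second FLP-13 receptor gene, frpr-4, had an L2 peak (1.502) over an L1 peak (1.87) and no listed site. At dmsr-7, a receptor gene for FLP-1, the fold was -0.33 (FDR 0.173) and at nmur-1, the receptor gene for CAPA-1, -0.24 (FDR 0.212) in the authors' deposited table.

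Receptor genes were set beside the genes of their ligands for 24 pairs known in C. elegans. In all 24 pairs the receptor gene had an L1 peak, as the choice of genes requires for receptors, and in 17 the ligand gene had one as well. Over all protein-coding genes the share with an L1 peak is 69.2%, and several ligand genes stand in more than 1 pair, flp-18 in 3. In 3 pairs both genes had a listed site. L2 peaks on both sides were found in 1 pair, frpr-18 with flp-2. At flp-2 the listed site had 5.87 in L2 and 6.10 in L1, a log2 fold of -0.22 (FDR 0.298), in the authors' deposited table. The listed frpr-18 site, at -170 bp, had 5.26 in L2 and 5.71 in L1 there, a log2 fold of -0.45 (FDR 0.0757). It does not overlap the L2 peak of frpr-18, whose summit lies at -2534 bp and which no listed site covers. Both genes were lower in L2 in 1 pair, the nematocin receptor ntr-1 (-0.61, FDR 0.0156) with its ligand gene ntc-1 (-0.54, FDR 0.0404) in the authors' deposited table. For npr-11 and nlp-1 both were listed in the authors' deposited table, at -0.59 (FDR 0.0267) and -0.39 (FDR 0.075). The ligand genes flp-20, nlp-12, nlp-47, nlp-54, lury-1 and pdf-2 had no assigned L1 peak.

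Other genes of peptide signalling were counted in the same way. Over all genes with a listed site, 42.1% were lower in L2 in the authors' deposited table. Of the genes for peptide processing and release, 6 of 11 with a listed site were lower there (54.5%). They include the proprotein convertase gene egl-3 (-0.61, FDR 0.0192), the amidating enzyme gene pghm-1 (-0.73, FDR 0.00975) and unc-31 (-0.58, FDR 0.0274), which is needed for dense core vesicle release, in the authors' deposited table. The other 3 in the authors' deposited table were tbc-8 (-0.50), nep-1 (-0.48), a neprilysin that degrades peptides, and cpd-2 (-0.42). Of the genes for G protein signalling inside the cell, 1 of 6 was lower in the authors' deposited table, the exchange factor gene unc-73 at -0.57 (FDR 0.022). FLP peptide genes were lower in 3 of 12 cases (25.0%), NLP peptide genes in 11 of 26 (42.3%), G protein-coupled receptors of classical transmitters in 3 of 13 (23.1%) and chemoreceptors in 173 of 446 (38.8%) in the authors' deposited table. None of these lists was tested against the receptors, and sites above the FDR limit are missing from all of them.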

How the data were processed

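The submitters' processing notes name BWA, SAMtools, MACS2, DiffBind and ChIPseeker. The sources used here give no versions, genome build or peak control. The peak names in the files state that each stage's libraries were merged and filtered and an outlier dropped. In the deposited peak lists the authors gave each peak a score (10 times the -log10 q-value), a fold enrichment ratio and a -log10 q-value. The authors' deposited table of the comparison holds, per the file headers, log2 concentrations, a log2 fold, a p-value and an FDR. No count per library was at hand, so no model was fitted, no replicate error could be computed and the depth is unknown. The tagged libraries therefore enter only through the authors' own steps, and which were dropped is not stated.

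Genes were matched by the printed gene name, and RefSeq symbols (WBcel235, 46926 genes) matched 99.9% of L2 peaks and 99.8% of L1 peaks. Overlap meant at least 1 bp. The derived standard error is the size of the fold divided by the normal quantile of its two-sided p. A second start is one of another gene named in the tables. The genes described in full were those with 4 or more L1 peaks, the first 10 by L2 or L1 fold enrichment or by FDR, the first 5 by concentration, up to 5 with a strong L1 peak and no listed site, and those with a well-known ligand or role. The members and lists were chosen with earlier results of these data known. Peaks by q-value or enrichment, other FDR thresholds, promoter sites only, other choices of the site that stands for a gene, a reciprocal overlap of 50% and membership by RefSeq symbol were tried as alternatives. The tools were matplotlib 3.10.9, SciPy 1.17.1, pandas 2.3.3 and NumPy 2.4.6 under Python 3.11.15.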

Additional observations from a re-analysis of the deposited data

How the results depend on the processing

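Of 24 alternatives 16 gave a value within 1.5 times, or 1 SD, of the reported one. Counts were compared without their denominators, and medians by the SD of the 54 single folds, 0.14. These bounds are wide, so the tally is only a loose measure of stability. By the authors' deposited table, no receptor gene (0) and no receptor site (0) was lower at an FDR below 0.01 (1.9% of all genes with a listed site), and 25 genes and 36 sites at an FDR below 0.1 (67.9% of all). Against the common median of -0.44, 0 genes were lower by the normal test on derived standard errors with Benjamini-Hochberg adjustment, and 0 receptor sites had an unadjusted p below 0.05. That test called 29 of all listed sites above the median and 0 below it. With a q-value of 1e-10 or less, 37 of the 77 genes had an L1 peak (30.3% of all protein-coding genes), and 32 had one at a fold enrichment of at least 2 (27.5%). With a q-value of 1e-5 or less, 7 had an L2 peak (6.1%). The shares in brackets include genes without any peak, whereas all 77 have an L1 peak by the rule. These counts therefore do not show that strong peaks are more frequent at receptor genes. Membership by RefSeq symbol, chosen after seeing the data, gave 18 of 41 genes and 29 of 62 sites lower in L2. The shares over all genes with a listed site and all listed sites were 42.1% and 41.4%. No paired analysis was possible because the files hold no value per library. Leaving out single libraries was not run for the same reason. The untagged N2 library was not used, so sites that also appear without the tag were not set aside.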

Other observations

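The receptors that the files list under sequence names had some of the higher values of the npr family. The npr-37 gene (M04G7.3 in the files, chromosome IV) had 3 L2 peaks, with fold enrichments of 1.68, 1.51 and 1.42, and 6 L1 peaks, the highest at 2.38. All 4 of its listed sites were lower in L2 in the authors' deposited table, with log2 folds of -0.69 (FDR 0.0139), -0.53 (FDR 0.021), -0.47 (FDR 0.0417) and -0.44 (FDR 0.0461). The highest peak of npr-42 (C01F1.4, chromosome II, 4268267 to 4268662, fold enrichment 2.55 in L1) lay upstream, at -7542 bp from the assigned start, in intron 2 of Y71H2AL.3. Its site there had 5.65 in L2 and 6.33 in L1 in the authors' deposited table, a log2 fold of -0.68 (FDR 0.0118). A second npr-42 site in the same intron did not pass, at -0.33 (FDR 0.212) in the authors' deposited table. At npr-41 (B0334.6, chromosome II) the start site was lower at -0.47 (FDR 0.0431) in the authors' deposited table. The sites of npr-36 and npr-38 did not pass, with -0.45 (FDR 0.0592) and -0.33 (FDR 0.1) in the authors' deposited table. No listed site was assigned to npr-39, npr-43, npr-45 or frpr-21.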
